A study of Homo sapiens with 5 samples.

Results

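The regions described here are the peaks on human chromosome 5 in 4 lists of sequence enrichment from A549, a cell line derived from a lung adenocarcinoma. They comprised 7869 of the 63391 peaks in all lists after peaks with the same interval were merged, namely 1081 of 11195 in FOXM1 ChIP, 656 of 7801 in LC3 ChIP, 1792 of 15402 in EBSS evDNA and 4340 of 28993 in control evDNA. The members were every peak that the lists place on chromosome 5, split at 48 Mb into a short arm (3883 peaks) and a long arm (3986 peaks). The chromosome was chosen by its share of the peaks in these same lists, so its peak density is given as a description with no test.

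FOXM1 ChIP and LC3 ChIP are immunoprecipitations from untreated A549 cells grown with serum and fixed with formaldehyde, with an antibody against FOXM1 and an antibody against LC3. EBSS evDNA is DNA of extracellular vesicles (EVs) collected from A549 cells kept for 3 days in EBSS, and control evDNA is vesicle DNA from A549 cells with no treatment; the medium given for vesicle collection holds no serum. Each list came from 1 library, so no spread between replicates could be measured, and every interval below is an exact 95% interval that covers counting error only. An input library was not analysed here.

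FOXM1 is a forkhead transcription factor of dividing cells, which reaches mitotic genes largely through the MuvB complex at cell cycle homology regions. LC3 proteins are ubiquitin-like proteins that are joined to lipid during autophagy and mark autophagosome membranes, and part of the cellular pool is nuclear. Vesicles shed by cells can carry fragments of genomic DNA, and EBSS, a salt solution without amino acids, is a common way to induce autophagy. The short arm of chromosome 5 carries a gene-poor stretch with classical cadherin genes, which encode calcium-dependent adhesion proteins, a tandem array of TAF11-like genes, the telomerase gene TERT near its end, and RICTOR, GHR and NIPBL nearer the centromere.

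A few promoters show which genes the peaks covered and how their sequences differed. Each is a RefSeq promoter on GRCh38.p14, from 250 bases before to 50 bases after a start site of the gene. It is read 5′ to 3′ on the strand of the gene. The CDH18, CDH12 and PIK3R1 promoters shown stand at start sites inside the gene body. CDH12 also had a promoter at its outer start (chr5:22853295-22853594), covered in control evDNA at a fold of 2.83 and not shown. Capitals mark TAAACA, the forkhead core, or TTTGAA, the cell cycle homology core, on either strand. The first 3 belong to cadherin genes of the short arm: CDH18 (chr5:19988151-19988450, minus strand) was covered by an EBSS evDNA peak, and CDH12 (chr5:22212720-22213019, minus strand) and CDH9 (chr5:27038537-27038836, minus strand) by control evDNA peaks.
CDH18: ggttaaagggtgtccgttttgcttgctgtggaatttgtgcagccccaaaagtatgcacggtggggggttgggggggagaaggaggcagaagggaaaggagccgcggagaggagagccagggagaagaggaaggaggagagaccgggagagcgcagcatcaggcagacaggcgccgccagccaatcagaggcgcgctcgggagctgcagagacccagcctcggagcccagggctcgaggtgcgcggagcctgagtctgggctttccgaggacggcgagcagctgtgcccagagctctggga
CDH12: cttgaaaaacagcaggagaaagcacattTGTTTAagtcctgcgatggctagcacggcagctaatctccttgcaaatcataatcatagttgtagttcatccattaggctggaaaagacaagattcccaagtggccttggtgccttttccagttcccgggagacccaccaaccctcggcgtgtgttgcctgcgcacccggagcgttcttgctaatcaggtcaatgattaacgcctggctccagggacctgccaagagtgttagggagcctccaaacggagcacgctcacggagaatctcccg
CDH9: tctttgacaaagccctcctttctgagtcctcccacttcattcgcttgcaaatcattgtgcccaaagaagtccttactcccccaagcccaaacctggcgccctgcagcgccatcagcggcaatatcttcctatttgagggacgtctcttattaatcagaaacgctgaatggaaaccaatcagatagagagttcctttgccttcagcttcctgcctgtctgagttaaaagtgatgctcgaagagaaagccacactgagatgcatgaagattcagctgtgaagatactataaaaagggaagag
TAF11L9 (chr5:17594345-17594644, minus strand), 1 copy of the TAF11-like array, was covered in both evDNA lists, as was PIK3R1 (chr5:68288269-68288568, plus strand), the long arm gene of a regulatory subunit of phosphoinositide 3-kinase.
TAF11L9: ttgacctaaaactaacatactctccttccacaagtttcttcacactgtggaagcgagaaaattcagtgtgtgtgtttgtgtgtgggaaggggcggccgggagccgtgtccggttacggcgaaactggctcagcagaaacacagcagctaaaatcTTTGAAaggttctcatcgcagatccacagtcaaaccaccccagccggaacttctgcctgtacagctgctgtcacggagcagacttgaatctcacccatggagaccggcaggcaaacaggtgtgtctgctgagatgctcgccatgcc
PIK3R1: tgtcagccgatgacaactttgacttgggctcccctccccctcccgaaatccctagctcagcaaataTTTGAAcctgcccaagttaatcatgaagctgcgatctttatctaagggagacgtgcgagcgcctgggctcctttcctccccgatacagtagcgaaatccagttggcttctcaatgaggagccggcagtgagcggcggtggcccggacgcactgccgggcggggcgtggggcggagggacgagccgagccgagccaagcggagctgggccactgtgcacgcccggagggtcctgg
EGFLAM (chr5:38258309-38258608, plus strand), which encodes the matrix protein pikachurin, was covered in LC3 ChIP, and SV2C (chr5:76083133-76083432, plus strand), a synaptic vesicle protein gene, in both LC3 ChIP and FOXM1 ChIP.
EGFLAM: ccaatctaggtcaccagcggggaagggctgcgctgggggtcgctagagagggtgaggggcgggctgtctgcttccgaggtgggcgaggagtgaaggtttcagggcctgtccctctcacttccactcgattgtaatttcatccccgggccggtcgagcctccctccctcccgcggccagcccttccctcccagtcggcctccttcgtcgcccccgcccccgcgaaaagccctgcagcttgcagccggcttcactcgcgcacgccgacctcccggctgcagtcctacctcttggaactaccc
SV2C: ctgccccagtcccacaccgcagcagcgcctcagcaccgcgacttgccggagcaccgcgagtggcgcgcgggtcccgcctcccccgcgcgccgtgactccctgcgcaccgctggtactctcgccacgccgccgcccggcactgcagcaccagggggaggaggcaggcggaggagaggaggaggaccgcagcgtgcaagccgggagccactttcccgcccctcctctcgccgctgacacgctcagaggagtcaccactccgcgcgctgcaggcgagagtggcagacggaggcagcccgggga
The LC3-covered pair was GC-rich, with 67.3% GC in EGFLAM and 74.3% in SV2C, whereas the cadherin promoters ranged from 46.7% in CDH9 to 64.7% in CDH18.

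Promoters covered by LC3 ChIP peaks were GC-rich on both arms. On the short arm, the 10 promoters covered in LC3 ChIP had a median GC content of 70.8% (range 57.3 to 78.0%), the 4 covered in EBSS evDNA 52.3%, and the 26 covered in control evDNA 52.7%, against 53.0% over all 391 short arm promoters. On the long arm, the 45 covered in LC3 ChIP had a median of 67%, the 6 in EBSS evDNA 48.7% and the 21 in control evDNA 58.7%, against 56.3% over all 1487. FOXM1 ChIP peaks covered 1 promoter on the short arm and 5 on the long arm. A TAAACA motif stood in none of these 6, in 4 of the 55 covered in LC3 ChIP, in 2 of the 10 in EBSS evDNA and in 8 of the 47 in control evDNA, against 12.3% of all 35116 promoters. It stood in 16.9% of all short arm promoters and 12.8% of all long arm promoters. TTTGAA stood in 1 of 6, 2 of 55, 2 of 10 and 11 of 47 in the same order, against 15.2% of all promoters and 22.8% of those on the short arm. The motif counts are matches of letters and no evidence of binding.

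Peak density was highest on the short arm in both vesicle lists. Density was counted as peaks per 1 Mb window, over 48 windows of the short arm, 134 of the long arm and 2598 of the other autosomes. EBSS evDNA had 842 short arm peaks, or 17.5 per window (16.4 to 18.8), and 7.09 per window on the long arm, against 5.03 per window on the other autosomes. Control evDNA had 2520 short arm peaks, or 52.5 per window (50.5 to 54.6), and 13.6 per window on the long arm, against 9.17 on the other autosomes. The short arm was thus 3.49 times (3.25 to 3.74) as dense as the other autosomes in EBSS evDNA and 5.73 times (5.49 to 5.97) in control evDNA. The long arm was closer to them, at 1.41 times (1.32 to 1.51) in EBSS evDNA and 1.48 times (1.41 to 1.55) in control evDNA. Chromosome 20, the densest autosome after chromosome 5 in both lists, held 7.49 per window in EBSS evDNA and 13.5 in control evDNA.

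The 2 immunoprecipitations showed a smaller excess over the mean of the other autosomes. Among all autosomes, chromosome 5 ranked 1st in FOXM1 ChIP, at 5.94 peaks per window, and 8th in LC3 ChIP, at 3.6. FOXM1 ChIP had 7.19 peaks per window (6.45 to 7.99) on the short arm and 5.49 on the long arm, against 3.77 on the other autosomes, which gave ratios of 1.91 (1.71 to 2.12) and 1.46 (1.35 to 1.57). LC3 ChIP had 3.67 per window (3.14 to 4.25) on the short arm and 3.58 on the long arm, against 2.70 on the other autosomes, which gave ratios of 1.36 (1.16 to 1.58) and 1.33 (1.21 to 1.45). The short arm over the long arm was 1.31 (1.15 to 1.49) in FOXM1 ChIP, 1.02 (0.856 to 1.22) in LC3 ChIP, 2.47 (2.25 to 2.72) in EBSS evDNA and 3.87 (3.64 to 4.11) in control evDNA. Thus the arms had like densities in LC3 ChIP and differed most in control evDNA. With peaks of q of at most 0.05 only, the FOXM1 ratios were 0.541 (0.0651 to 1.98) on the short arm and 0.582 on the long arm, from 2 and 6 peaks, and that of LC3 on the long arm was 0.658, from 9 peaks, so these excesses rest on peaks above that q. At this q the control evDNA short arm ratio was 10.4 (9.43 to 11.4).

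**Figure D1:**
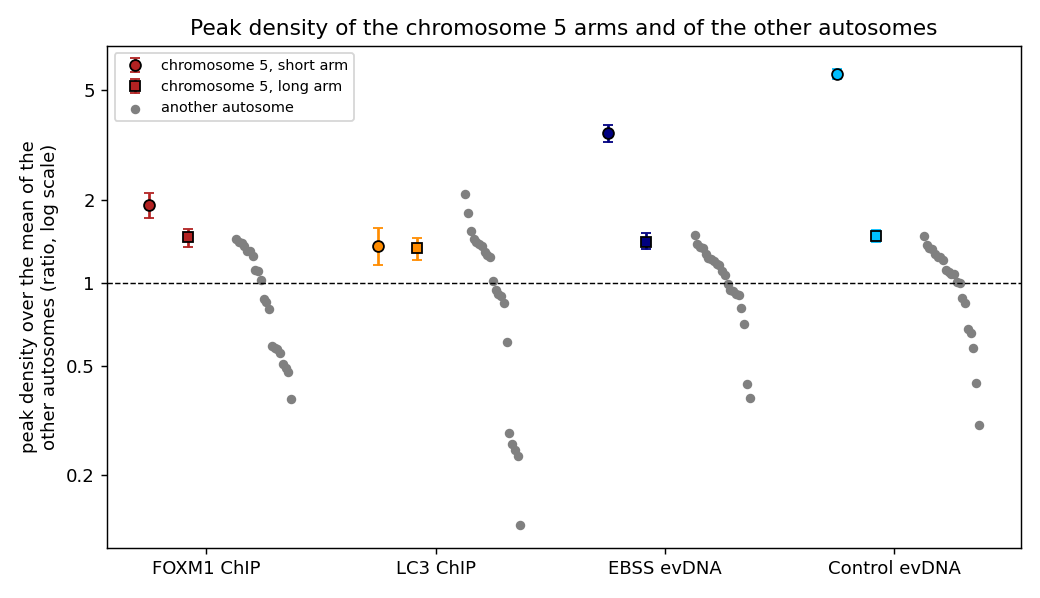
Peak density of the short arm (circles) and the long arm (squares) of chromosome 5 and of each of the other 21 autosomes (grey points), divided by the list's mean density over those 21 autosomes, on a log scale, for the 4 lists; bars are exact 95% intervals of counting error. In FOXM1 ChIP, EBSS evDNA and control evDNA the short arm, at 1.91, 3.49 and 5.73, stands above every other autosome. In LC3 ChIP, at 1.36, it lies among them.

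No stretch of equal length elsewhere reached the short arm in either vesicle list. Of 1624 runs of 48 consecutive windows on the other autosomes, the densest held 9.5 peaks per window in EBSS evDNA and 23.7 in control evDNA, both at 0 to 48 Mb of chromosome 12. In FOXM1 ChIP 14 runs were at or above the short arm, with the densest at 7.67 per window on chromosome 3, and in LC3 ChIP 397 were. Among the 60 densest autosomal windows, 4 lay on the short arm in FOXM1 ChIP, 2 in LC3 ChIP, 22 in EBSS evDNA and 34 in control evDNA. The highest window of the other autosomes held 60 control evDNA peaks, and 20 windows of the short arm held more.

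Windows with at least 2 times the list's median number of peaks were called dense. On the short arm 31 of 48 windows were dense in FOXM1 ChIP (64.6%), against 24.3% of the windows of the other autosomes. In LC3 ChIP 20 of 48 were dense (41.7%), against 31.3% of the other windows. In EBSS evDNA 38 of 48 were dense (79.2%), against 10.4%, and in control evDNA 43 of 48 (89.6%), against 16.2%. On the long arm the shares were 42.5%, 44.0%, 18.7% and 35.1% in the same order of lists. The chromosome was chosen on this contrast, so the shares are descriptive.

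**Figure D2:**
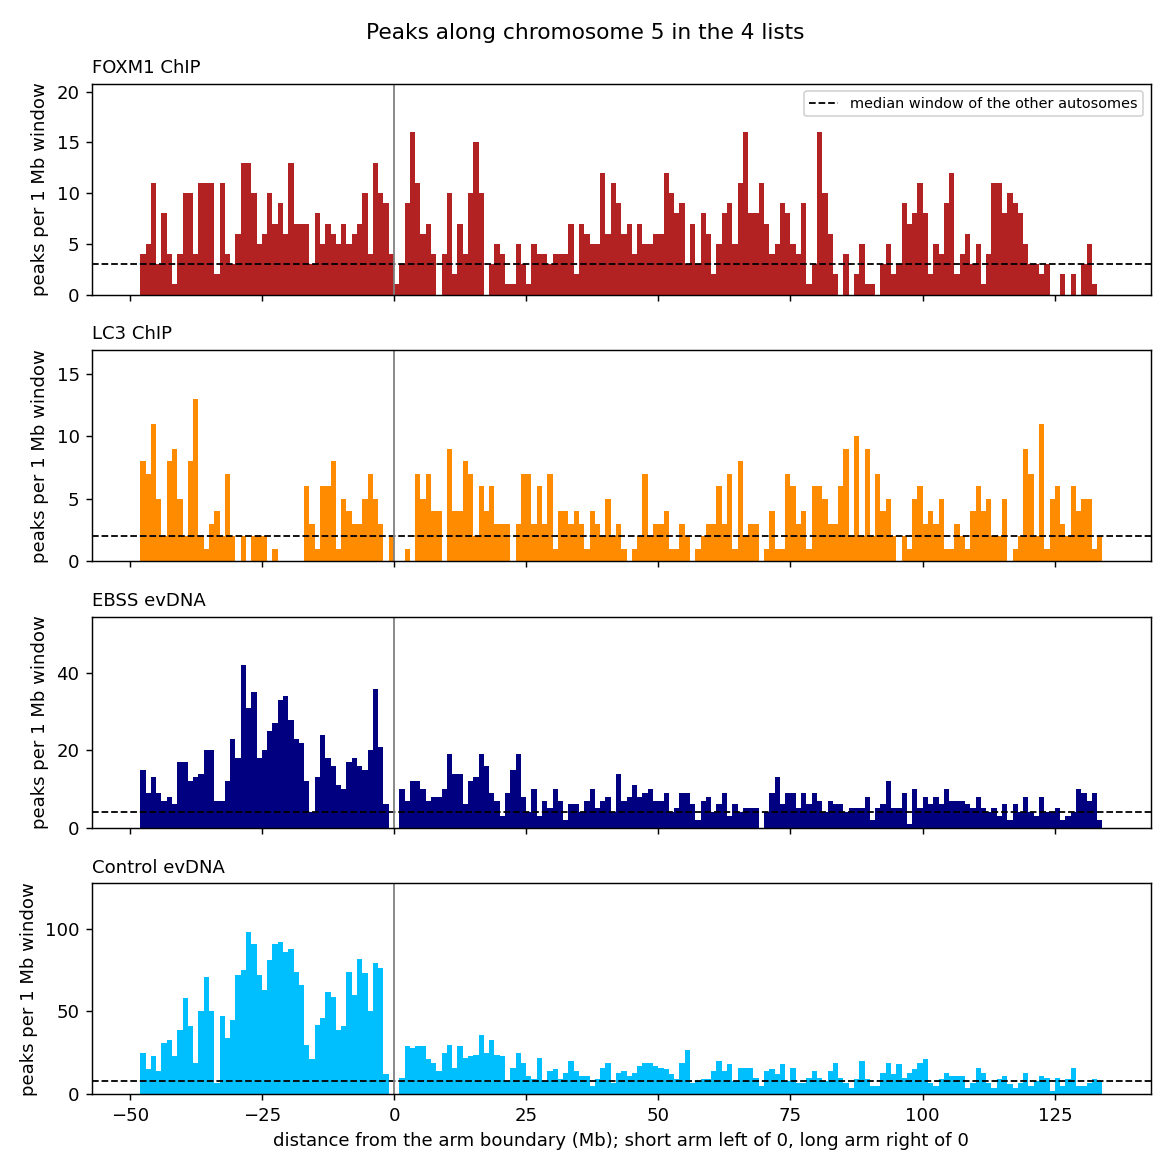
Number of peaks in each 1 Mb window along chromosome 5 in the 4 lists, against the distance from the arm boundary in Mb; the dashed line is the median window of the other autosomes of the same list, and each panel has its own scale. EBSS evDNA and control evDNA are highest in the middle of the short arm, where LC3 ChIP has its longest stretch of few or no peaks, and both come down near the boundary.

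Along the short arm the vesicle lists and LC3 ChIP had opposite profiles. In steps of 10 Mb from the end of the arm, EBSS evDNA held 11.3, 17.6, 27.4 and 14.7 peaks per window, and 14.2 from 40 to 50 Mb. Control evDNA held 30.2, 47.0, 83.6, 48 and 44.2, and FOXM1 ChIP 6.0, 7.6, 8.6, 6.0 and 6.7 over the same steps. LC3 ChIP held 6.5, 3.6, 0.7, 4.0 and 2.8, so its lowest step, from 20 to 30 Mb, was the highest of the other 3 lists. That step held 5 protein-coding genes, against 53 in the first. Over the 48 windows, Spearman's rho with the number of protein-coding genes was 0.68 in LC3 ChIP, -0.48 in FOXM1 ChIP, -0.22 in EBSS evDNA and -0.35 in control evDNA. Over the 2598 windows of the other autosomes it was 0.30, -0.37, 0.16 and 0.06 in that order. EBSS evDNA and control evDNA windows ran together on the short arm (rho 0.85), more loosely on the long arm (0.43) and at 0.68 elsewhere; neighbouring windows share a library and base composition, so these are descriptions.

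On the long arm the vesicle density came down in steps. EBSS evDNA held 10.7 peaks per window at 50 to 60 Mb, 10.8 at 60 to 70 Mb and 8.8 at 70 to 80 Mb, and at most 9.0 in each later step. Control evDNA held 24.0, 24.7 and 14.8 in the same 3 steps and between 7.4 and 15.4 later. FOXM1 ChIP held 2.1 per window at 130 to 140 Mb, 1.7 at 170 to 180 Mb and 0.5 in the last 2 windows, and 5.8 at 140 to 150 Mb, the step with most protein-coding genes (138). LC3 ChIP held 5.3, 4.8, 1.5 and 3.2 per window in the same places, beside its long arm mean of 3.58.

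The gene-poor stretch from 19 to 32 Mb, bounded by the cadherin genes CDH18 and CDH6, was dense in 3 lists and sparse in LC3 ChIP. Its 13 windows and 11 protein-coding genes held 26.9 EBSS evDNA peaks per window (range 12 to 42), 5.35 times (4.8 to 5.95) the other autosomes. Control evDNA had 77.5 per window (30 to 98), 8.45 times (7.93 to 9.0), and FOXM1 ChIP 8.69 (5 to 13), 2.31 times (1.9 to 2.78). LC3 ChIP had 1.15 per window (0 to 6), 0.427 times (0.239 to 0.705). In the other 35 windows of the short arm the ratios were 2.79 in EBSS evDNA, 4.72 in control evDNA, 1.76 in FOXM1 ChIP and 1.70 in LC3 ChIP. The difference between lists was not tested, with 1 library each.

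Among the cadherin genes themselves, CDH18 and CDH12 held most peaks. CDH18, a cadherin of the nervous system, held 14 FOXM1 ChIP peaks, no LC3 ChIP peak, 42 EBSS evDNA peaks and 97 control evDNA peaks over its 1104 kb. CDH12, another neural cadherin of 1103 kb, held 10, 1, 22 and 80 in the same order. CTNND2, which encodes delta-catenin, a partner of cadherins at cell junctions, held 11, 3, 15 and 44 over 933 kb. CDH9 held 4 EBSS evDNA and 19 control evDNA peaks and none in the immunoprecipitations, and CDH10 held 2 FOXM1 ChIP and 9 control evDNA peaks. CDH6, a cadherin of the kidney, held 1, 0, 2 and 9. Per Mb of gene, the 6 genes held 10.6, 1.11, 23.7 and 71.8 peaks, beside 6.98, 4.59, 14.7 and 48.6 over all short arm genes and 3.35, 3.23, 4.96 and 8.97 over genes of the other autosomes. Promoter peaks were counted apart from these and need not touch the gene body. CDH18 had 1 promoter peak in EBSS evDNA and none in control evDNA, while in control evDNA CDH9 had 4 and CDH6 had 2. The strongest cadherin promoter peak was at CDH12 in control evDNA (22213428 to 22213816, fold 4.18), beside the CDH12 promoter shown.

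The strongest vesicle peaks of the short arm lay in the TAF11-like array, whose members are copies related to TAF11, a subunit gene of the general transcription factor TFIID. A peak assigned to AC233724.3 had a fold over local background of 10.2 in EBSS evDNA and 9.36 in control evDNA, with 106 and 114 fragments at the summit. Folds, p and q here and below are the authors' values for single peaks. Overlapping peaks were joined into places. The place from 17526114 to 17528089, assigned to TAF11L6, was the only place on chromosome 5 with a peak in all 4 lists. Its highest folds were 3.58 in FOXM1 ChIP, 2.26 in LC3 ChIP, 8.76 in EBSS evDNA and 7.42 in control evDNA. The EBSS evDNA fold of 8.76 came from a peak assigned to TAF11L5 (17526138 to 17527298), which does not reach the FOXM1 ChIP peak (17527535 to 17527885). The EBSS evDNA peak that overlaps that FOXM1 ChIP peak had a fold of 4.2. TAF11L3 had promoter peaks in LC3 ChIP, EBSS evDNA and control evDNA, and TAF11L9 in both vesicle lists. Reads from these copies cannot be placed with certainty.

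The lists of 5p13 genes, nearer the centromere, and 5p15 genes, near the end of the arm, were read beside all genes of the arm. Over all 167 short arm genes, 24.0% held a FOXM1 ChIP peak, 29.9% an LC3 ChIP peak, 43.1% an EBSS evDNA peak and 60.5% a control evDNA peak. Of the 18 listed 5p13 genes, 16 held a peak in EBSS evDNA and 16 in control evDNA, 10 in FOXM1 ChIP and 8 in LC3 ChIP. GHR, the growth hormone receptor gene, held 6 FOXM1 ChIP, 2 LC3 ChIP, 6 EBSS evDNA and 25 control evDNA peaks. NIPBL, the cohesin loader gene, held 1, 0, 5 and 18. RICTOR, whose product scaffolds the mTORC2 kinase, held 1, 0, 2 and 14, with a highest fold of 5.11 in control evDNA. Counted apart, RICTOR had 4 promoter peaks in control evDNA. SPEF2, a sperm flagellum gene, held 2, 1, 3 and 13. Of the 13 listed 5p15 genes, 1 held a FOXM1 ChIP peak, 4 an LC3 ChIP peak, 5 an EBSS evDNA peak and 3 a control evDNA peak, and TERT, SLC6A3, the dopamine transporter gene, IRX1 and IRX4 held none in any list. Per Mb of gene, control evDNA had 57.2 peaks in the 5p13 genes and 10.2 in the 5p15 genes, while LC3 ChIP had 4.49 and 8.13. The 5p15 genes are short, 492 kb in all against 2447 kb for the 5p13 genes.

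The list of autophagy, AMPK and mTOR genes held 2 FOXM1 ChIP, 3 LC3 ChIP, 7 EBSS evDNA and 32 control evDNA peaks, with 14 of those in control evDNA in RICTOR and 7 in PIK3R1. Of its 9 genes, 2 held a FOXM1 ChIP peak, 3 an LC3 ChIP peak, 4 an EBSS evDNA peak and 6 a control evDNA peak. Over all long arm genes 19.8%, 22.3%, 31.8% and 42.2% held a peak in the same order of lists, and over all short arm genes 24.0%, 29.9%, 43.1% and 60.5%. ATG10, which encodes the conjugating enzyme of ATG12, held 1, 1, 3 and 4 peaks. PIK3R1 held no FOXM1 ChIP peak, 1 LC3 ChIP peak (fold 4.17), 1 EBSS evDNA peak (2.70) and 7 in control evDNA. The LC3 ChIP peak covered a PIK3R1 promoter at 68215506 to 68215805, apart from the PIK3R1 promoter shown, which only the evDNA lists covered. SQSTM1, the gene of the autophagy receptor p62, ATG12 and RAB24 held none. Of the 14 cell cycle genes, 1 held a FOXM1 ChIP peak, beside 19.8% of all long arm genes and 24.0% of all short arm genes. LC3 ChIP peaks lay in 4, EBSS evDNA peaks in 4 and control evDNA peaks in 3. These genes span only 480 kb. Their 1 FOXM1 ChIP peak made 2.09 per Mb of gene, beside 4.42 over all long arm genes and 6.98 over all short arm genes. The gene with that peak was PTTG1 (securin), at a fold of 2.89, the median of long arm FOXM1 ChIP peaks. CCNB1, KIF20A, CDC25C and HMMR, known FOXM1 targets or mitotic genes, held none in any list. PLK2, a polo-like kinase gene, had the strongest long arm LC3 ChIP peak, at its promoter (58457158 to 58457531, fold 4.74), and a second LC3 ChIP peak, with none in the other lists. CENPK, a kinetochore gene, held 1 EBSS evDNA and 3 control evDNA peaks.

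Of the 20 other long arm genes listed, 11 held a FOXM1 ChIP peak, 7 an LC3 ChIP peak, 13 an EBSS evDNA peak and 12 a control evDNA peak. The genes named next were taken from those with peaks in all 4 lists, so they do not show how evenly the list was covered. PDE4D, a cyclic AMP phosphodiesterase gene of 1553 kb, held 8 FOXM1 ChIP, 7 LC3 ChIP, 24 EBSS evDNA and 35 control evDNA peaks. TENM2, a teneurin adhesion gene of 1285 kb, held 7, 14, 10 and 14, so LC3 ChIP had as many peaks as control evDNA there. KCNN2, a potassium channel gene, held 6, 1, 1 and 12, and ADGRV1, an adhesion receptor gene, 4, 2, 10 and 11. The 20 genes of that list held 6.29, 4.97, 10.3 and 17.1 peaks per Mb, beside 4.42, 4.59, 7.75 and 14.6 over all long arm genes. Of the 10 immune and protocadherin genes of 5q31, only PCDHA1 and PCDHGA1 held a peak in any list, and IL3, IL4, IL5, IL13, CSF2 and IRF1 held none. The immune genes just named are short, from 2.38 kb (CSF2) to 15.4 kb (IL5), against 226 kb for PCDHA1 and 182 kb for PCDHGA1. Of the 7 duplicated genes of 5q13, 2 held EBSS evDNA peaks and 4 held control evDNA peaks, among them NAIP (fold 5.02 in control evDNA), and none held a peak in the immunoprecipitations. Over all long arm genes the shares with a peak were 19.8% in FOXM1 ChIP, 22.3% in LC3 ChIP, 31.8% in EBSS evDNA and 42.2% in control evDNA. The duplicated 5q13 genes have near-identical copies, and how reads were placed between the copies was not tested.

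The densest windows named further genes. In FOXM1 ChIP, the windows at 51 to 52 Mb near ISL1, 114 to 115 Mb over KCNN2 and 128 to 129 Mb over SLC27A6 and FBN2 held 16 peaks each. In LC3 ChIP the window from 10 to 11 Mb, with CCT5 and part of CTNND2, held 13 peaks, 10 of them distal intergenic, and the window from 2 to 3 Mb held 11, 10 of them distal intergenic. Beyond the centromere LC3 ChIP was densest at 170 to 171 Mb, with 11 peaks, 5 of them assigned to KCNIP1, a gene of a potassium channel partner. EBSS evDNA was densest at 19 to 20 Mb, with 42 peaks, 26 of them assigned to CDH18. Control evDNA was densest at 20 to 21 Mb, with 98 peaks, 22 of them assigned to CDH18, and at 26 to 27 Mb, with 92, 21 of them assigned to CDH9. The window from 64 to 65 Mb held 19 EBSS evDNA peaks, 8 of them assigned to RNF180, a ubiquitin ligase gene, and 36 control evDNA peaks, 12 of them assigned to RNF180, the most on the long arm in control evDNA. These assignments are the authors' nearest genes and can lie outside the gene itself.

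Counted per window, the short arm excess was larger away from genes than at promoters. These ratios do not allow for how many promoters a window holds. EBSS evDNA peaks classed by the authors as distal intergenic were 5.06 times (4.58 to 5.58) as dense on the short arm as on the other autosomes, those in first introns 2.90 times (2.27 to 3.64) and those within 1 kb of a start site 1.79 times (1.29 to 2.43). In control evDNA these ratios were 8.15 (7.69 to 8.64), 5.56 (4.88 to 6.30) and 3.61 (3.05 to 4.25). In FOXM1 ChIP they were 2.30 (1.97 to 2.67), 2.14 (1.52 to 2.93) and 1.07 (0.55 to 1.88). In LC3 ChIP the distal intergenic ratio was 2.37 (1.89 to 2.94), and the promoter ratio of 0.957 (0.668 to 1.33) had an interval that included 1. By gene, however, 13.8% of short arm protein-coding genes had an LC3 ChIP promoter peak, against 7.72% on the other autosomes. On the long arm the distal intergenic ratios were between 1.38 and 1.58. Promoters took 20.5% of short arm LC3 ChIP peaks (14.8 to 27.2%), against 29.0% on the other autosomes, and 6.15% of short arm control evDNA peaks, against 9.75%.

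**Figure D3:**
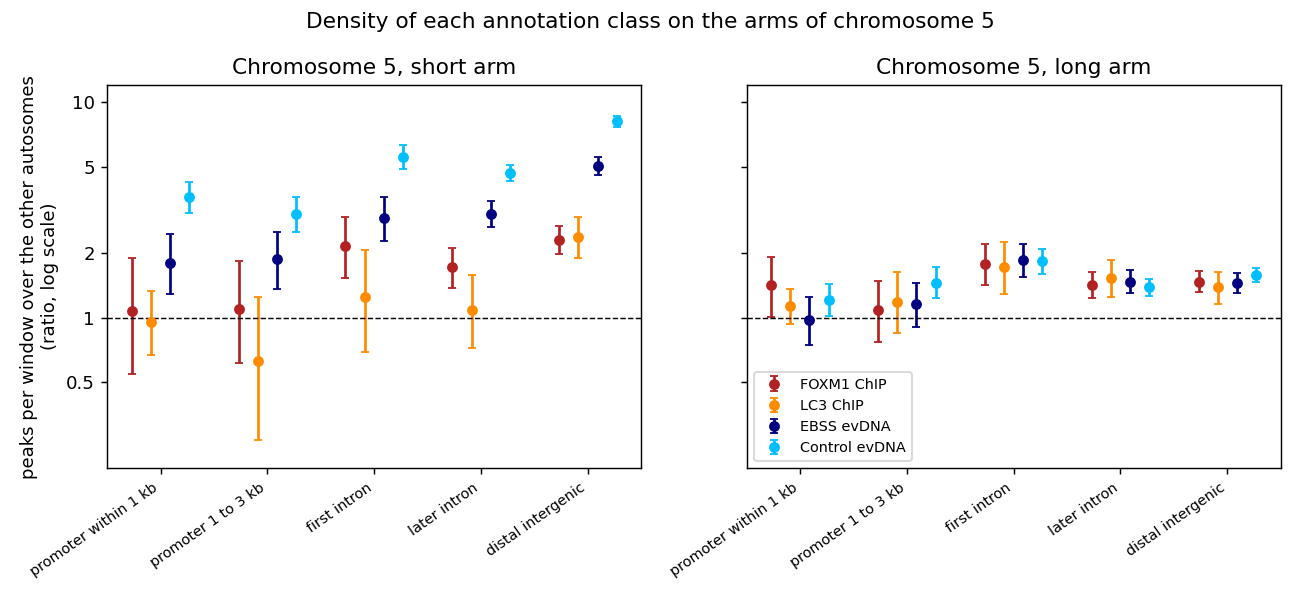
Peaks per window on the short arm and the long arm of chromosome 5 divided by peaks per window on the other autosomes, on a log scale, for 5 annotation classes and the 4 lists; bars are exact 95% intervals of counting error. On the short arm the control evDNA ratio is 3.61 at promoters and 8.15 in distal intergenic DNA. Per window on that arm, LC3 ChIP exceeds 1 clearly in distal intergenic DNA alone, at 2.37. The ratios do not allow for how many promoters a window holds.

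Of the 167 protein-coding genes of the short arm, 43.1% held an EBSS evDNA peak, against 19.3% of genes on the other autosomes. Control evDNA peaks lay in 60.5%, against 25.8%. LC3 ChIP peaks lay in 29.9%, against 14.7%, and FOXM1 ChIP peaks in 24.0%, against 11.6%. Short arm genes had a median length of 43.3 kb, against 24.1 kb. At promoters, 15 of 167 genes had an EBSS evDNA peak (8.98%, against 3.48%), 40 a control evDNA peak (24.0%, against 5.90%), 23 an LC3 ChIP peak (13.8%, against 7.72%) and 4 a FOXM1 ChIP peak (2.4%, against 1.48%). The 4 FOXM1 promoters were those of CTNND2 (fold 3.85), TAF11L6 (3.58), DROSHA, the microRNA-processing nuclease gene (2.89), and SLC45A2, a pigment transporter gene (2.89). Only the TAF11L6 peak had q of at most 0.05 (−log10 q 2.18), with 0.51 at CTNND2. A fold of 2.89 was the median of short arm FOXM1 ChIP peaks. LC3 promoter peaks on the short arm were led by EGFLAM (4.17), TAF11L3 and SEMA5A, an axon guidance gene (4.06).

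The local background under the peaks was raised on the short arm in the vesicle lists. It was recovered, with the number of fragments at the summit, from each peak's fold and p. In EBSS evDNA its median was 4.03 fragments on the short arm and 2.02 on the long arm, against 2.04 on the other autosomes, and in control evDNA 3.42 and 1.93, against 1.99. It was 1.08 in all 3 in FOXM1 ChIP, and in LC3 ChIP 1.86 and 1.96, against 1.96. The lowest background of a list applied to 1.07% of short arm peaks in EBSS evDNA, against 31.1% on the other autosomes, and to 5.48% in control evDNA, against 40.5%. In FOXM1 ChIP it applied to 75.1%, against 65.7%, so that its median could not show a difference, and in LC3 ChIP to 33.0%, against 21.4%. Median summit heights were 12 fragments on the short arm in both vesicle lists, against 8 on the other autosomes, while median folds were 2.59 in EBSS evDNA, against 2.79, and 2.78 in control evDNA, against 2.84. Within the short arm the control evDNA background was lowest, at 2.94, in the step from 20 to 30 Mb that held most peaks, and highest, at 4.82, in the first 10 Mb, which held fewest. The part of this raised background in the peak density was not tested.

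**Figure D4:**
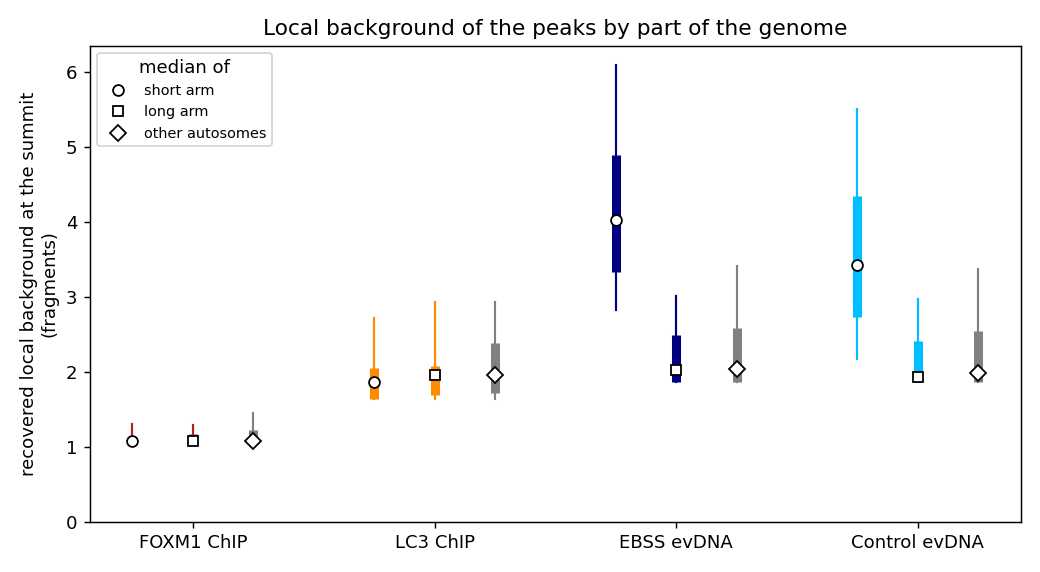
Recovered local background in fragments at the summits of peaks on the short arm and the long arm of chromosome 5 and on the other autosomes, for the 4 lists; symbols are medians, thick bars the middle 50% of peaks and thin lines the 10% to 90% range. The short arm medians of 4.03 in EBSS evDNA and 3.42 in control evDNA stand above those of the long arm and the other autosomes, which lie between 1.93 and 2.04.

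The share of peaks with low q was raised on the short arm in control evDNA. In EBSS evDNA 8.08% of short arm peaks had q of at most 0.05 (6.33 to 10.1%), and 8.84% on the long arm, against 8.74% on the other autosomes. In control evDNA 542 of 2520 short arm peaks did (21.5%, 19.9 to 23.2%), and 10.6% on the long arm, against 11.9%. In LC3 ChIP 8 of 176 short arm peaks passed (4.55%) and 1.88% on the long arm, against 3.78% on the other autosomes, and in FOXM1 ChIP 2 of 345 (0.58%) and 0.815% on the long arm, against 2.04%.

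Both vesicle lists shared more peaks on the short arm than elsewhere. Of the short arm EBSS evDNA peaks, 301 (35.7%, 32.5 to 39.1%) overlapped a control evDNA peak by at least 1 bp, and 9.47% of those on the long arm did, against 9.47% on the other autosomes. Of the short arm control evDNA peaks, 12.3% overlapped an EBSS evDNA peak, against 5.18% on the other autosomes. Control evDNA peaks covered 2.18% of the short arm's windows, against 0.317% of the other autosomes, and a denser list meets more peaks at any place. FOXM1 ChIP peaks on the short arm overlapped control evDNA at 29 of 345 (8.41%, 5.7 to 11.8%), against 1.68% on the other autosomes, and LC3 ChIP peaks at 12 of 176 (6.82%, 3.57 to 11.6%), against 2.96%. FOXM1 ChIP and LC3 ChIP met at 5 short arm peaks (1.45% of the FOXM1 ChIP peaks, against 1.38% on the other autosomes, and 2.84% of the LC3 ChIP peaks, against 1.95%). The strongest of those lay near the centromere from 47140519 to 47140963, at folds of 6.68 in FOXM1 ChIP and 5.34 in LC3 ChIP.

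Places held by 3 or more lists numbered 9 on the short arm and 7 on the long arm, of 3516 and 3834. Besides TAF11L6, the short arm places included introns of DNAH5, a dynein gene of motile cilia, SPEF2 and SELENOP, the selenoprotein P gene, and a place upstream of CDH12. The SELENOP place (42863137 to 42863659) had folds of 3.71 in FOXM1 ChIP, 2.99 in EBSS evDNA and 3.35 in control evDNA. A pair of places assigned to AC138409.1 had a recovered background of 43.3 to 59.9 fragments in the vesicle lists. On the long arm the SV2C promoter (76083158 to 76084361) was held by FOXM1 ChIP (fold 2.64), LC3 ChIP (4.27) and control evDNA (2.58). A place beside the centromere at 49630720 to 49631203, nearest gene EMB, had folds of 23.3 in EBSS evDNA, the highest of the chromosome in that list, and 21.2 in control evDNA; FOXM1 ChIP had a fold of 2.91 there over a background of 38.1 fragments. A peak assigned to AC138866.2, beginning at 70219412 in EBSS evDNA, had folds of 18.8 in EBSS evDNA and 22 in control evDNA, the highest of the chromosome in control evDNA. At these shared places, q was at most 0.05 in LC3 ChIP at SV2C (−log10 q 1.49), and in FOXM1 ChIP at TAF11L6 (2.18) and at both places near EMB (17.5 and 2.59); at the others the −log10 q of the immunoprecipitations was between 0 and 0.778.

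The arm boundary at 48 Mb fell in a stretch with few peaks. The last short arm peak ended at 47855553 in FOXM1 ChIP, 47140900 in LC3 ChIP, 46194104 in EBSS evDNA and 46419852 in control evDNA. The first long arm peak began at 48869162, 50965226, 49599495 and 49599483 in the same order. That first peak had a background of 29.4 fragments in EBSS evDNA and 32.9 in control evDNA.

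The vesicle lists had like depth and unlike lengths. Relative depth, estimated from the lowest background of each list, was about the same in EBSS evDNA as in control evDNA, and with control evDNA set at 1 it was 0.479 in FOXM1 ChIP and 0.762 in LC3 ChIP. With each list cut to its 7801 strongest peaks, a setting chosen after seeing the data, the short arm ratio was 3.94 in EBSS evDNA and 7.98 in control evDNA. EBSS evDNA was below control evDNA in this ratio under each of the settings tried, and with 1 library per condition the treatment and the library cannot be told apart.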

How the data were processed

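The data were 4 peak lists from A549 cells, 1 library each, grouped by the antibody and treatment labels. The submitters' processing notes name MACS3 3.0.0a6, ChIPseeker, BWA, fastp 0.20.0 and FastQC 0.11.8, and the build hg38. The control used in peak calling was not given in the sources used here. Per the file headers, narrow peaks were called separately for every library, with a nearest gene for each. Deposited values per peak were a fold (a linear ratio) over local background, a −log10 p-value, a −log10 q-value and a score, which was not used further, and other values such as positions and distances. In the EBSS evDNA list damaged headings of the p and q columns were resolved by position. Lists end at a −log10 p of 2.3, with no limit on q. Coordinates are 1-based, as deposited.

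Deposited rows on chromosome 5 (1081 in FOXM1 ChIP, 660 in LC3 ChIP, 1817 in EBSS evDNA and 4412 in control evDNA) were merged by start and end. Peaks were counted by start in 1 Mb windows that held a RefSeq gene or a peak in any list. Summit height and background were recovered by solving the fold and the Poisson p for a whole number of fragments, which matched 100% of intervals within 0.01; read totals are unknown. Shares have exact Clopper-Pearson intervals, densities exact Poisson intervals and ratios exact conditional binomial intervals. Peaks in a gene are those that touch its RefSeq body on GRCh38.p14, to which 60.5% to 70.1% of the assigned names matched. The recovery was tested on simulated data. Python 3.11.15, pandas 2.3.3, numpy 2.4.6 and scipy 1.17.1 were used.

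Genes were named by a rule: the 5 highest promoter folds and the 3 highest peaks per arm and list, leading genes of the 3 densest windows, places in 3 or more lists, and members of 8 gene lists. Within the gene lists, values were given mainly for members with peaks in the most lists. Printed promoters were chosen from those of highest fold per list and from the cadherin genes. The members and lists were chosen with earlier results of these data known. Alternatives tried were unmerged rows, q of at most 0.05, −log10 p of at least 3, centromere windows left out, medians over windows, other window sizes and multiples, promoters within 3 kb and an overlap of 50%.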

Additional observations from a re-analysis of the deposited data

Results flagged for a closer look

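The stretch of the short arm from 19 to 32 Mb was picked out because the lists went opposite ways there against the other autosomes; its bounds come from the cadherin genes CDH18 and CDH6. Its peak density was 2.31 times that of the other autosomes in FOXM1 ChIP, 0.427 times in LC3 ChIP, 5.35 times in EBSS evDNA and 8.45 times in control evDNA. The difference between the lists was not tested, since each came from 1 library.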

How the results depend on the processing

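The density of an arm over the other autosomes stayed above 1 in every list and setting, except with q of at most 0.05 in FOXM1 ChIP, at 0.541 on the short arm and 0.582 on the long arm, and in LC3 ChIP on the long arm, at 0.658; few peaks were left there. That q limit also gave 1.63 for LC3 ChIP, 3.22 for EBSS evDNA and 10.4 for control evDNA on the short arm, and 1.32 for control evDNA on the long arm. Medians over windows gave 2.33 and 1.67 (short and long arm) in FOXM1 ChIP, 1.5 on the long arm in LC3 ChIP, 4.25 and 1.75 in EBSS evDNA and 6.25 and 1.62 in control evDNA. On the short arm, equal list lengths gave 3.94 in EBSS evDNA and 7.98 in control evDNA, where a −log10 p of at least 3 gave 6.06 and leaving out the centromere 6.03. Counting unmerged peaks or every window, the every-window count and equal list lengths chosen after seeing the data, moved none of the 8 ratios by more than counting error. The percentage of dense windows was 83.2 and 66.0 (short and long arm) in FOXM1 ChIP and 46.8 on the long arm in EBSS evDNA with 500 kb windows. With 2 Mb windows it was 10.4 in EBSS evDNA and 22.4 in control evDNA on the long arm. At 3 times the median it was 35.4 and 21.6 in FOXM1 ChIP, 27.1 and 23.1 in LC3 ChIP, 60.4 and 3.73 in EBSS evDNA and 10.4 on the long arm in control evDNA. Promoters within 3 kb took 7.83% and 11.5% in FOXM1 ChIP, 33.5% on the long arm in LC3 ChIP, 10.6% and 15.2% in EBSS evDNA and 10.9% and 16.8% in control evDNA. With an overlap of 50% of the shorter peak, control evDNA was met by 4.64% of short arm FOXM1 ChIP peaks, 3.54% of long arm LC3 ChIP peaks, and 27.2% and 7.26% of short and long arm EBSS evDNA peaks. The cause of these changes was not tested. No paired analysis was possible because each group has 1 library. Read totals are unknown, and weak peaks depend most on depth, which by the estimate from background and peak width was lowest in FOXM1 ChIP.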
